A study of Mus musculus with 19 samples.

Results

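Messenger RNA of 34 interferon response genes was followed in mouse hearts, by name, among the 56066 genes of the deposited table. All 34 were found once, by gene symbol, and 33 of them reached the level needed for testing; Oas3, at 0.01 to 0.4 TPM in every library, did not. The series compared mouse hearts in which the kinase PDK1 was conditionally deleted (conditional knockout, cKO) and wild-type (WT) hearts of young mice. The groups were WT at postnatal day 1 (P1, n = 3), cKO at P7 (n = 3), WT at P7 (n = 5), cKO at P21 (n = 3) and WT at P21 (n = 4). The tissue was heart in every library. The series' design text calls the first age P0, while each of its libraries is labelled P1. The promoter that drives the deletion, the strain of each group (2 P21 WT titles hold B6) and the animals behind each library are not stated in the sources used here, so p-values measure the spread between libraries, which may be technical. A further P21 library, numbered 63, is labelled cKO by genotype while its title lacks the KO that every other cKO title has, and it was put in no group.

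Interferons are secreted proteins that cells release when sensors such as RIG-I or MDA5 meet foreign nucleic acid. Type I interferons bind the receptor pair IFNAR1 and IFNAR2, the kinases JAK1 and TYK2 then become active, and a complex that holds STAT2 and IRF9 binds the interferon-stimulated response element (ISRE) in promoters of antiviral genes. Type II interferon acts through another promoter element, called GAS, and through IRF1, and it is known for inducing guanylate-binding and immunity-related GTPases. Many of these genes are also read at a low level without infection, and heart muscle cells, endothelial cells, fibroblasts and resident macrophages all can express them.

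The sequences of 4 promoters are shown because their genes carry the results below. Ifit1, Ifit3 and Isg15 rose between P7 and P21 in both genotypes. Ifit2, of the same gene cluster as Ifit1 and Ifit3, was lower in WT and higher in cKO over that interval. The Ifit2 fall did not pass with another scaling between libraries, nor the rise without library P21 cKO 59, as given below. The sequences are from RefSeq (mm10) and run from 250 bases before to 50 bases after the start of the gene. They read 5′ to 3′ on the gene's strand. Capitals mark the ISRE core searched, GAAANNGAAA on either strand.
Ifit1 (chr19:34640639-34640938, + strand): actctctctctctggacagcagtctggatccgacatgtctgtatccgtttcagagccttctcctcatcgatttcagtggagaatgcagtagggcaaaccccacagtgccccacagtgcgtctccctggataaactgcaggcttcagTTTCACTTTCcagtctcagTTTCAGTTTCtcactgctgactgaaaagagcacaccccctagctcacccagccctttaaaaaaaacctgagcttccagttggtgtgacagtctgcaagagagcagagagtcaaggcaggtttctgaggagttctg
Ifit3 (chr19:34583279-34583578, + strand): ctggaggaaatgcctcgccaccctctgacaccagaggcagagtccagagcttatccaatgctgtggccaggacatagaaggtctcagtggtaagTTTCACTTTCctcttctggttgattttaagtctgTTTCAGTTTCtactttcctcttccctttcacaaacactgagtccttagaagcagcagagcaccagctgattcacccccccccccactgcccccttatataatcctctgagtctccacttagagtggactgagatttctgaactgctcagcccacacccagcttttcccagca
Isg15 (chr4:156200769-156201068, - strand): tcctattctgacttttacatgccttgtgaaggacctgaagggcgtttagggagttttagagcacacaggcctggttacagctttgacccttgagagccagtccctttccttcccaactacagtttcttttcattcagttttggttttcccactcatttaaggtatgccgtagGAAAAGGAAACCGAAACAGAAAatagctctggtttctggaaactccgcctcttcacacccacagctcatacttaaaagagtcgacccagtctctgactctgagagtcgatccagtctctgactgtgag
Ifit2 (chr19:34550444-34550743, + strand): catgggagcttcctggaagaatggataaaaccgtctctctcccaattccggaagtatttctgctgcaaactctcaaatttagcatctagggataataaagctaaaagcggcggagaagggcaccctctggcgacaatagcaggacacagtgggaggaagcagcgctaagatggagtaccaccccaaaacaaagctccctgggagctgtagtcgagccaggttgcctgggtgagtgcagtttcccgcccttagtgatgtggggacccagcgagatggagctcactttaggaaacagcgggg
The core was found 2 times in the Ifit1 window, 2 times in the Ifit3 window, 3 overlapping times in the Isg15 window and 0 times in the printed Ifit2 window. RefSeq gives Ifit2 2 windows, from different starts, and the core was in neither. RefSeq windows were matched by symbol for 25 of the 34 genes. The core was in the windows of 15 of these 25 genes (60%), against 3.99% of all 27025 genes with a window. These were Ddx58, Ifih1, Stat2, Isg15, Ifit1, Ifit3, Oas1a, Oas3, Rsad2, Bst2, Gbp2, Gbp3, Gbp7, Igtp and Irgm1. The GAS core, TTCNNNGAA, reads the same on both strands. It was in the windows of 7 of the 25 genes, Ifit2 and Irf1 among them, against 9.55% of all genes. A match describes the letters of the window only. Of the 14 tested genes with the ISRE core 10 were higher and 0 lower in P21 WT than in P7 WT (median log2 change 0.54). Of the 10 tested genes with a window but no core 6 were higher and 2 lower (median 0.36). Over all genes tested 8.1% were higher and 64.4% lower. For P21 cKO against P21 WT, 6 of the 14 and 2 of the 10 were higher and 0 of either lower, beside 19.5% and 1.77% of all genes tested. Gbp2, Gbp3 and Gbp7, neighbouring paralogs that can share reads, were among the 6. The difference between genes with and without the core was not tested. Zbp1, Usp18, Rtp4, Ifi27, Dhx58, Mx2, Parp14, Ifi27l2a and Oas2 were not matched.

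Levels are TPM, the share of a gene among all transcripts of its library, adjusted for transcript length, which keep no read depth, so read depth cannot be given. The number of genes at 1 TPM or more was 12422 to 13797 in a library. Changes are differences of log2(TPM + 1) from limma, a linear model fitted to all 14812 genes that reached 1 TPM in 3 or more libraries, with Benjamini-Hochberg adjustment over all of them; a gene was called at an adjusted p under 0.05. This scale understates changes of low genes. The median gene itself had a log2 change of 0.22 for P21 cKO against P21 WT, -0.47 for P21 WT against P7 WT, -0.48 for P21 WT against P1 WT and -0.24 for P21 cKO against P7 cKO. Changes called "relative" below are differences from that median gene. Some WT titles hold letters, H, heart or B6, called "letter-code" below (3 at P1, 2 at P7 and 2 at P21). All cKO titles are plain numbers followed by KO, so title style is a term of the model. The term is a shift shared by all ages, while the order of the title styles differed between P7 WT and P21 WT, as given below. It cannot remove such a difference, so genotype at P21 is not fully separated from title style. PDK1 can name Pdpk1 or Pdk1, which the labels do not settle; Pdpk1 was at 4.95 to 5.55 TPM in P21 cKO and at 6.17 to 7.65 TPM in P21 WT. Summed markers of heart muscle cells were at 50245 to 65175 TPM in all 18 grouped libraries.

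The median level of the interferon response genes in WT hearts was higher at P1 and at P21 than at P7. Not every gene followed this course: the WT means of Irf1, Gbp2 and Ifi27 were lowest at P1 (6.34, 3.04 and 15.8 TPM). The median log2(TPM + 1) of the 33 genes in a library was 3.19, 2.55 and 2.80 in P1 WT. It was 2.09, 2.09 and 2.42 in P7 cKO, against 2.07, 2.18, 2.11, 2.40 and 2.46 in P7 WT. It was 3.32, 3.81 and 3.24 in P21 cKO, against 2.75, 3.16, 2.82 and 2.88 in P21 WT. At P7 the genotypes overlapped on this measure, and at P21 each cKO library lay above each WT library. The median over all genes tested was also higher in each P21 cKO library (3.02, 3.09 and 3.07) than in each P21 WT library (2.74, 2.96, 2.88 and 2.83). That median was 3.48, 3.47 and 3.30 in P1 WT, against 3.28, 3.36, 3.36, 3.48 and 3.45 in P7 WT. For 10 of the 33 genes every P7 WT library lay below every P1 WT and every P21 WT library, as did 0.965% of all genes tested. The 10 were Irf7, Isg15, Ifit1, Ifit3, Oasl2, Mx2, Ifi27l2a, Ifi35, Gbp3 and Rtp4. Within groups a few libraries were high for most of the genes. P1 WT 1 was the highest P1 library for 30 of 33 genes, P21 cKO 59 the highest P21 cKO library for 26, and P21 WT 60 the highest P21 WT library for 27.

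**Figure D1:**
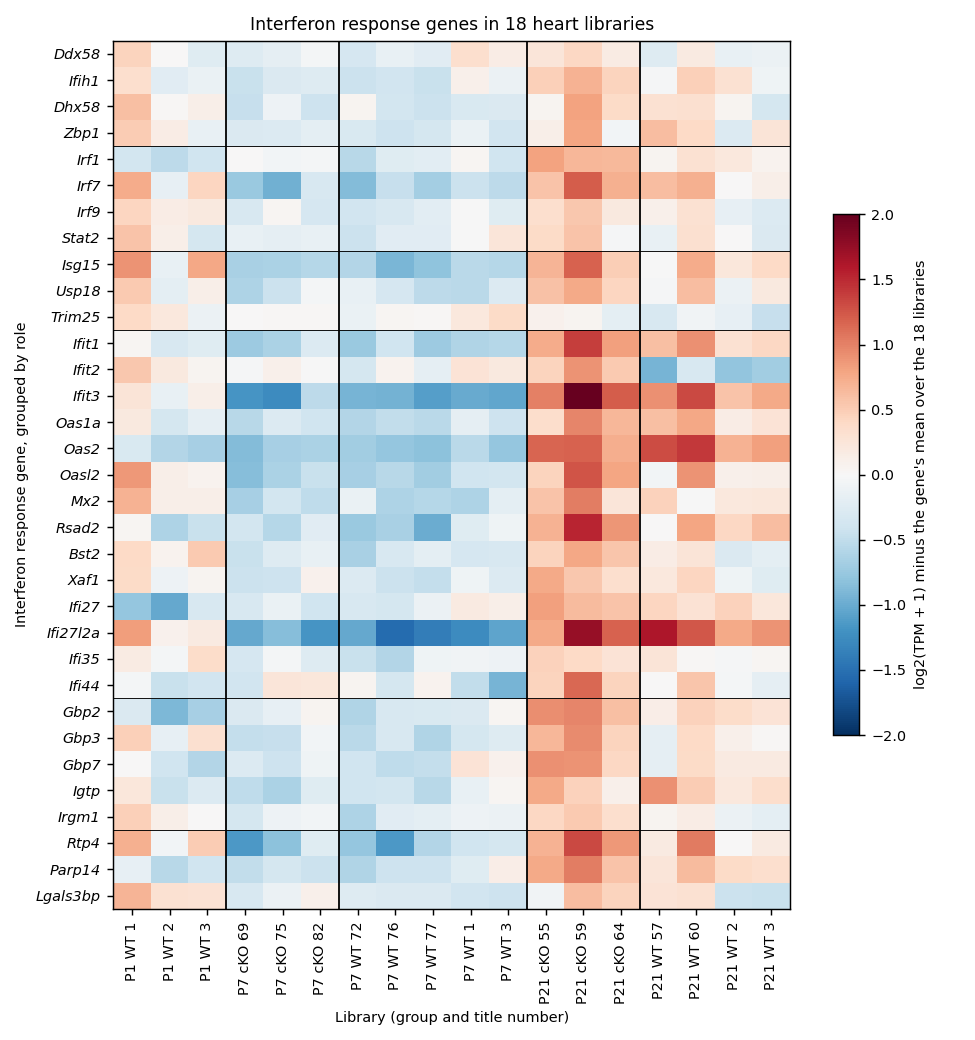
Heat map of the 33 tested interferon response genes (rows, grouped by role) in 18 libraries (columns, named by group and title number). Colour is log2(TPM + 1) minus the gene's mean over the 18 libraries, cut at -2 and 2; P7 columns are mostly blue, P21 cKO columns mostly red, and the rows of Ifit2 and Trim25 depart from the common pattern.

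In the first postnatal week, WT hearts lost interferon response transcripts: 14 of the 33 genes were lower at P7 than at P1 and 1 was higher. Over all genes tested, 14.7% were lower and 13.8% higher. Their median log2 change was -0.44, beside -0.001 for the median gene. Of the transcription factors, Irf7, the regulator that amplifies type I interferon production, and Irf9, the DNA-binding subunit of the complex that binds the ISRE, fell. Of the ISG15 system, Isg15, a ubiquitin-like modifier, and Usp18, which removes it and damps receptor signalling, fell. Lower genes among the antiviral effectors were Ifit3, Oasl2, Mx2, Bst2 and Ifi27l2a, and Ifi27 was the single gene that rose. Mx2 is counted there by role, while the mm10 annotation lists it as a polymorphic pseudogene. Dhx58 was the only one of 4 sensor genes that fell; Gbp3 and Irgm1 among the GTPases and Rtp4 and Lgals3bp among the remaining genes were lower too.

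Ifi27l2a, whose protein is a small membrane protein induced by interferon, was at 12.1, 8.16, 9.19, 10.04 and 11.8 TPM in P7 WT, against 46.5, 27.2 and 29.2 TPM in P1 WT. Every P7 library was below every P1 library, and the log2 change was -1.74 ± 0.26 (SE; limma adjusted p = 0.00021). Ifit3, of a family of RNA-binding antiviral proteins, was at 1.33, 1.31, 1.06, 1.21 and 1.17 TPM in P7 WT, against 4.33, 2.99 and 3.8 TPM in P1 WT (-1.21 ± 0.24, adjusted p = 0.00178). Isg15 was at 4.29, 3.22, 3.56, 4.46 and 4.37 TPM in P7 WT, against 13.8, 6.20 and 12.6 TPM in P1 WT (-1.14 ± 0.25, adjusted p = 0.00344). The groups of both genes stood apart, and P1 WT 2 was the lowest P1 library for both. Irf7 was at 2.34, 3.43, 2.80, 3.50 and 3.24 TPM in P7 WT, against 9.19, 4.42 and 7.21 TPM in P1 WT (-1.03 ± 0.25, adjusted p = 0.00688).

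Bst2, which encodes tetherin, a membrane protein that holds budding viruses at the cell, was at 23.5, 29.5, 32.2, 29.3 and 29.5 TPM in P7 WT, against 49.5, 39.1 and 54.2 TPM in P1 WT (-0.80 ± 0.15, limma adjusted p = 0.00131). Lgals3bp, a secreted glycoprotein gene, was at 21.1, 20.6, 20.8, 19.4 and 19.0 TPM in P7 WT, against 41.5, 31.8 and 31.4 TPM in P1 WT (-0.99 ± 0.18, adjusted p = 0.000933). Both genes were abundant for this group, and neither overlapped between the ages. Irf9 was at 7.54, 7.93, 8.68, 10.1 and 8.42 TPM in P7 WT, against 13.96, 11.4 and 11.7 TPM in P1 WT (-0.55 ± 0.16, adjusted p = 0.0163). Several of these calls rested on P1 WT 1: without it Irf9 (-0.46) and Oasl2 (-0.63) were not called, nor were Mx2 and Rtp4, which also lost their calls without P7 WT 1 and P1 WT 3 in turn (Mx2 -0.61 to -0.53, Rtp4 -0.97 to -0.87). Dhx58 lost its call without any 1 of P1 WT 1, P7 WT 1, 3 or 76, or P21 WT 3, 57 or 60 (-0.72 to -0.48), and Gbp3 without any 1 of P1 WT 1 or 3, P7 WT 1, 3 or 77, or P21 WT 2 or 3 (-0.64 to -0.44). Usp18 kept its call only without P1 WT 2, P7 cKO 69 or 82, P7 WT 72 or P21 WT 57, and Irgm1 only without P1 WT 3, P7 cKO 69, P7 WT 1 or P7 WT 72. Ifi27, a relative of Ifi27l2a, went the other way, with 20.5, 20.0, 23.6, 29.3 and 28.2 TPM in P7 WT, against 14.7, 12.2 and 20.5 TPM in P1 WT (0.73 ± 0.16, adjusted p = 0.00301). Without P1 WT 1, 6 genes were lower and 2 higher, beside 11.8% and 12.6% of all genes tested. Without P21 WT 60, 2 were higher, beside 16.5%. Among letter-code libraries alone, 6 of 32 genes were lower and 1 higher, beside 8.13% and 9.36%.

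From P7 to P21 most interferon response genes rose in WT hearts while most other transcripts fell. Of the 33 genes 24 were higher at P21 and 2 lower, beside 8.1% higher and 64.4% lower of all genes tested. Their median log2 change was 0.49, which is 0.96 relative to the median gene. With median-ratio scaling, which sets the median gene near 0, 31 were higher and 0 lower, beside 27.5% higher and 27.2% lower of all genes tested. Of 12 macrophage markers 9 were higher over the same interval, with the sums given further on. Of the antiviral effectors 13 of 14 tested were higher. Of the transcription factors Irf1 and Irf7 were higher, of the sensors Ifih1 and Zbp1, of the ISG15 system Isg15 and Usp18, of the GTPases Gbp2, Gbp3 and Igtp, and of the remaining genes Rtp4 and Parp14. Zbp1 reached 1 TPM only in P1 WT 1 (1.02 TPM), P21 cKO 59 (1.44 TPM) and P21 WT 57 (1.17 TPM). It thus entered the test through ages other than P7, and without any 1 of these libraries it was not tested. It was at 0.06 to 0.30 TPM in P7 WT and at 0.17 TPM in P21 WT 2. Oas2 was at 0.43 to 0.79 TPM at P7 and Ifit1 at 0.29 to 0.78 TPM. Outside P21 both reached 1 TPM only in P1 WT 1 (1.11 and 1.22 TPM). Both thus passed the filter through P21, where they were high, and their calls against earlier ages, in either genotype, rest on that. The lower genes were Ifit2 and Trim25, a ubiquitin ligase gene of RIG-I signalling, and both lost that call with median-ratio scaling, where Trim25 turned to 0.16 and Ifit2 was at -0.24.

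Oas2, an antiviral enzyme gene of the oligoadenylate synthetase family, was at 5.41, 5.90, 3.21 and 3.58 TPM in P21 WT, against 0.61, 0.52, 0.47, 0.79 and 0.53 TPM in P7 WT. The log2 change was 1.80 ± 0.15 (SE; limma adjusted p = 3.54e-08), 2.27 relative to the median gene. Oas1a, of the same enzyme family, was at 2.60, 3.06, 1.63 and 1.86 TPM in P21 WT, against 0.59, 0.69, 0.64, 1.09 and 0.78 TPM in P7 WT (0.90 ± 0.16, adjusted p = 0.000142). In both genes the plain-number libraries P21 WT 57 and P21 WT 60 were above the letter-code libraries. This order of the title styles held in P21 WT for 15 of the 33 genes and the opposite for 0, beside 18.6% and 11.8% of all genes. In P7 WT the letter-code libraries were above the plain-number ones for 16 of the 33 and below for 2, beside 33.8% and 7.63% of all genes. Ifi27l2a was at 80.9, 61.7, 44.1 and 48.5 TPM in P21 WT, against 12.1, 8.16, 9.19, 10.04 and 11.8 TPM in P7 WT (2.40 ± 0.21, adjusted p = 6.97e-08). It was the most abundant of the 34 genes in each P21 WT library.

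Ifit3 was at 7.36, 10.1, 5.57 and 6.52 TPM in P21 WT, against 1.33, 1.31, 1.06, 1.21 and 1.17 TPM in P7 WT (1.92 ± 0.20, limma adjusted p = 3.89e-07). Its neighbour Ifit1, which binds RNA with an unmethylated cap, was at 2.29, 3.06, 1.67 and 1.88 TPM in P21 WT, against 0.29, 0.64, 0.31, 0.42 and 0.46 TPM in P7 WT (1.18 ± 0.16, adjusted p = 6.97e-06). Isg15 was at 6.91, 12.2, 8.34 and 9.48 TPM in P21 WT, against 4.29, 3.22, 3.56, 4.46 and 4.37 TPM in P7 WT (1.01 ± 0.20, adjusted p = 0.000325). These genes, whose promoters are printed above, did not overlap between P21 and P7. Rsad2, which encodes viperin, an enzyme that makes a chain-terminating nucleotide, was at 4.01, 7.57, 5.61 and 6.62 TPM in P21 WT, against 1.99, 2.16, 1.5, 3.19 and 3.71 TPM in P7 WT (0.96 ± 0.20, adjusted p = 0.000446). Parp14, an ADP-ribosyltransferase gene, was at 4.54, 6.28, 5.09 and 4.95 TPM in P21 WT, against 2.10, 2.52, 2.52, 2.96 and 4.12 TPM in P7 WT (0.69 ± 0.13, adjusted p = 0.000275). Calls lost without 1 library were those of Gbp3 (0.34) and Usp18 (0.39) without P21 WT 60, Bst2 without P21 WT 57 or 60 (0.28 to 0.32) and Ifi35 without P7 WT 72 or 76 or P21 WT 57 (0.22 to 0.29). Ifih1 lost its call without P7 WT 77 or P21 WT 2 or 60 (0.24 to 0.39), Xaf1 without P7 WT 76 or 77 or P21 WT 57 or 60 (0.27 to 0.36) and Ifi44 without P7 WT 3 or 76 or P21 WT 2, 3 or 60 (0.37 to 0.47). Among plain-number libraries alone 26 of 32 genes were higher and 0 lower, beside 7.23% and 53.4% of all genes tested. Among letter-code libraries alone 7 of 32 were higher and 2 lower, beside 4.6% and 58.8%.

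**Figure D2:**
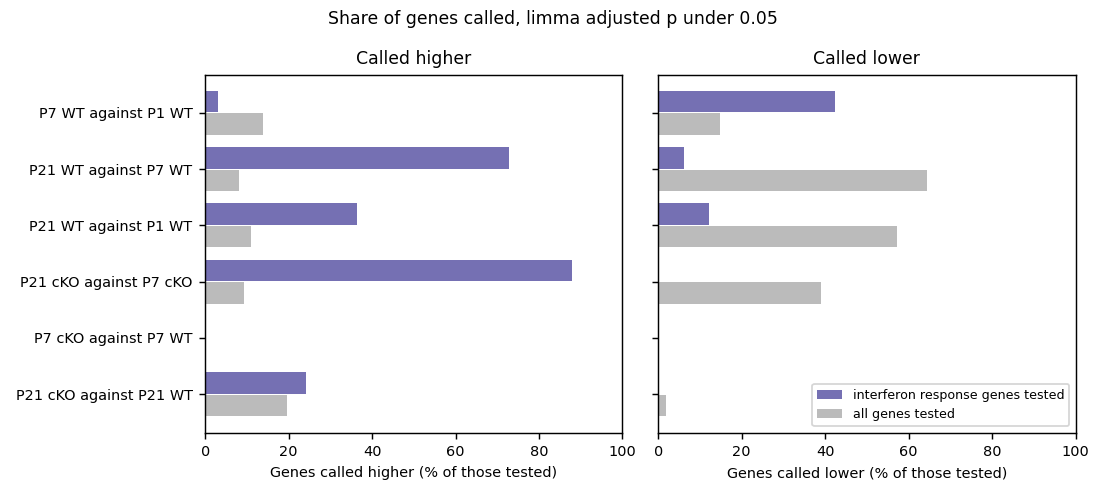
Share of the 33 tested interferon response genes (purple) and of all 14812 genes tested (grey) called higher (left) or lower (right) in each comparison, as % of genes tested. The genes stand at 72.7% higher for P21 WT against P7 WT, beside 8.1% of all genes, and at 24.2% for P21 cKO against P21 WT, beside 19.5%.

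Between the outer ages, WT hearts at P21 did not simply return to the P1 state: 12 of the 33 genes were higher at P21 than at P1 and 4 were lower, beside 11% higher and 57.1% lower of all genes tested. With median-ratio scaling 15 were higher and 1 lower, beside 28.1% and 29.3%. Oas2 was at 5.41, 5.90, 3.21 and 3.58 TPM in P21 WT, against 1.11, 0.74 and 0.64 TPM in P1 WT (1.46 ± 0.18, limma adjusted p = 3.57e-06). Ifi27 was at 35.1, 31.8, 36.1 and 30.3 TPM in P21 WT, against 14.7, 12.2 and 20.5 TPM in P1 WT (1.16 ± 0.16, adjusted p = 8.91e-06). Ifi27 was thus higher at each later age. Gbp2, a guanylate-binding GTPase gene that acts on membranes of intracellular microbes, was at 5.71, 7.37, 6.91 and 6.36 TPM in P21 WT, against 3.98, 2.27 and 2.86 TPM in P1 WT (1.01 ± 0.17, adjusted p = 7.61e-05). Irf1, the factor linked to type II interferon, was at 9.23, 11.3, 10.4 and 9.34 TPM in P21 WT, against 6.68, 5.85 and 6.49 TPM in P1 WT (0.62 ± 0.13, adjusted p = 0.000389). Both genes also stood apart between the ages.

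Parp14 (log2 change 0.86, limma adjusted p = 0.00027) and Rsad2 (0.995, adjusted p = 0.00201) were higher at P21 than at P1 as well. Ifit1 (0.65), Ifit3 (0.71), Oas1a (0.51), Ifi27l2a (0.67), Gbp7 (0.66) and Igtp (0.67) made up the rest of the higher genes. The lower ones were Ifit2 (-0.87, adjusted p = 0.00069), Lgals3bp (-0.69, adjusted p = 0.0029), Bst2 (-0.44) and Trim25 (-0.36). With median-ratio scaling Ifit2 was still lower (-0.40, adjusted p = 0.0324), Lgals3bp was at -0.15 and not called, and Bst2 and Trim25 turned to 0.11 and 0.17. Without P1 WT 1, P21 WT 2 or P21 WT 3, 2 genes were lower, beside 52.9%, 52.9% and 51.8% of all genes tested. Without P1 WT 2, Ifit3 (0.59) and Igtp (0.53) were not called. Ifi27l2a lost its call without P1 WT 2 or 3, P7 WT 3 or P21 WT 57 (0.52 to 0.60), Oas1a without P1 WT 2 or 3, P7 WT 1 or 3, or P21 WT 57 or 60 (0.39 to 0.49), Bst2 without P1 WT 1 or 3 or P21 WT 2 or 3 (-0.41 to -0.34) and Trim25 without P1 WT 1 or 2, P7 WT 76, or P21 WT 2, 3 or 57 (-0.37 to -0.20).

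In cKO hearts the rise from P7 to P21 covered 29 of the 33 genes and none was lower, beside 9.36% higher and 39% lower of all genes tested. The median log2 change was 0.95, which is 1.19 relative to the median gene. With median-ratio scaling 31 were higher and 0 lower, beside 19.8% and 20.2%. All 14 antiviral effectors tested, all 5 GTPases and the remaining 3 genes Rtp4, Parp14 and Lgals3bp were higher, with 3 of 4 transcription factors (not Stat2), 2 of 3 genes of the ISG15 system (not Trim25) and 2 of 4 sensors (Ifih1 and Dhx58). Ifit3 was at 7.93, 16.6 and 9.33 TPM in P21 cKO, against 0.96, 0.85 and 2.08 TPM in P7 cKO (2.39 ± 0.24, limma adjusted p = 1.01e-06). Ifi27l2a was at 43.9, 87.6 and 59.1 TPM in P21 cKO, against 12.1, 13.7 and 10.7 TPM in P7 cKO (2.24 ± 0.25, adjusted p = 3.93e-06). Oas2 was at 4.86, 4.90 and 3.30 TPM in P21 cKO, against 0.43, 0.65 and 0.68 TPM in P7 cKO (1.74 ± 0.18, adjusted p = 1.4e-06). None of these genes overlapped between the ages, and P21 cKO 59 was the highest cKO library for each.

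Ifit1 was at 2.63, 4.66 and 2.83 TPM in P21 cKO, against 0.30, 0.40 and 0.78 TPM in P7 cKO (1.53 ± 0.19, limma adjusted p = 1.08e-05). Irf7 was at 8.01, 13.1 and 8.92 TPM in P21 cKO, against 2.62, 2.13 and 3.84 TPM in P7 cKO (1.51 ± 0.25, adjusted p = 0.000138). Parp14 was at 6.90, 8.49 and 5.96 TPM in P21 cKO, against 2.33, 2.67 and 2.50 TPM in P7 cKO (1.20 ± 0.16, adjusted p = 2.4e-05). Every P21 library of these genes lay above every P7 library. Ifi27 was at 46.5, 40.7 and 38.7 TPM in P21 cKO, against 20.4, 23.5 and 19.4 TPM in P7 cKO (0.96 ± 0.15, adjusted p = 0.000117). Irf1 was at 16.4, 14.7 and 14.5 TPM in P21 cKO, against 8.96, 8.52 and 8.59 TPM in P7 cKO (0.74 ± 0.12, adjusted p = 0.000157). Ifit2, lower with age in WT, was higher with age in cKO (0.60 ± 0.18, adjusted p = 0.0126). That call was lost without P21 cKO 59 (0.46, adjusted p = 0.0674), as were those of Dhx58 (0.54) and Ifi44, the last also without P7 cKO 69 (0.42 to 0.45). Lgals3bp lost its call without any 1 of 8 libraries: P1 WT 2, P7 cKO 69 or 75, P7 WT 72, 76 or 77, or P21 cKO 59 or 64 (0.30 to 0.45).

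At P7, none of the 33 genes was called between cKO and WT hearts, in limma or in any alternative tried, beside 0.0203% of all genes tested in either direction (3 genes), and 1 had an unadjusted p under 0.05. Their log2 changes ran from -0.17 to 0.31 with a median of -0.003. The gene with the smallest p was Irf1, at 8.96, 8.52 and 8.59 TPM in P7 cKO and 5.71, 7.31, 7.5, 9.15 and 6.52 TPM in P7 WT (0.28 ± 0.12, limma adjusted p = 1). Gbp2 was at 4.02, 4.45 and 5.37 TPM in P7 cKO and 3.03, 3.88, 3.94, 3.99 and 5.31 TPM in P7 WT (0.23 ± 0.16, adjusted p = 1). Rsad2 was at 2.87, 2.34 and 3.25 TPM in P7 cKO and 1.99, 2.16, 1.5, 3.19 and 3.71 TPM in P7 WT (0.31 ± 0.23, adjusted p = 1). The genotypes overlapped for Irf1, Gbp2 and Rsad2.

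At P21, 8 of the 33 genes were higher in cKO than in WT hearts and none was lower: Ifit2, Irf1, Gbp7, Gbp2, Bst2, Gbp3, Rsad2 and Irgm1. Of the 5 GTPase genes 4 were higher (not Igtp), of the 4 transcription factors Irf1, of the 14 effectors Ifit2, Bst2 and Rsad2, and of the 4 sensors and the 3 genes of the ISG15 system 0. This share, 24.2%, is near the 19.5% of all genes tested that were higher; 1.77% were lower. The median log2 change of the 33 was 0.40, which is 0.18 relative to the median gene, and 26 of 33 lay above the median gene. With median-ratio scaling 2 were higher, Ifit2 and Gbp7, and 0 lower, beside 4.04% higher and 5.41% lower of all genes tested. The count changed with single libraries, and the share of all genes tested changed in the same direction. It was 2 without P21 WT 57 (8.63% of all genes tested) or P21 cKO 59 (9.98%), and 18 without P21 WT 60 (32.6%). It was 5 without P21 cKO 55 (18%), P21 cKO 64 (11%) or P21 WT 3 (14.6%). Among plain-number libraries alone it was 2 of 32, beside 9.52% of all genes tested. Markers of endothelial cells (8 of 10) and fibroblasts (8 of 8) were also higher in P21 cKO, with the sums given further on.

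Irf1 was at 16.4, 14.7 and 14.5 TPM in P21 cKO, against 9.23, 11.3, 10.4 and 9.34 TPM in P21 WT. The groups stood apart. Irf1 was higher by 0.59 ± 0.13 on the log2 scale (limma adjusted p = 0.00577), 0.37 relative to the median gene. Gbp7, which helps to load defence proteins onto microbial vacuoles, was at 7.23, 7.12 and 4.83 TPM in P21 cKO, against 2.86, 4.68, 3.94 and 3.95 TPM in P21 WT (0.79 ± 0.20, adjusted p = 0.013). Gbp2 was at 10.7, 10.96 and 8.24 TPM in P21 cKO, against 5.71, 7.37, 6.91 and 6.36 TPM in P21 WT (0.61 ± 0.17, adjusted p = 0.0217). Gbp3 was at 9.45, 11.6 and 7.99 TPM in P21 cKO, against 4.79, 7.70, 6.04 and 5.70 TPM in P21 WT (0.64 ± 0.19, adjusted p = 0.0299). In all 3 the cKO libraries lay above the WT libraries, with P21 cKO 64 lowest among the cKO libraries. The 3 genes lie in 1 stretch of chromosome 3 (mm10, 142530342 to 142638008), and reads shared between such paralogs make their separate levels uncertain. With P21 cKO 59 or P21 WT 57 left out, none of the 3 was called (Gbp7 0.72 each, Gbp2 0.54 and 0.56, Gbp3 0.51 each). The same held for Gbp2 (0.56) and Gbp3 (0.65) with P21 cKO 55 left out and for Gbp3 (0.62) with P21 WT 3 left out.

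Bst2 was at 51.1, 64.7 and 55.2 TPM in P21 cKO, against 41.4, 44.5, 30.2 and 32.3 TPM in P21 WT (0.53 ± 0.15, limma adjusted p = 0.0248). Irgm1, a GTPase gene of autophagy-linked defence, was at 12.6, 13.8 and 11.9 TPM in P21 cKO, against 9.65, 10.4, 8.43 and 8 TPM in P21 WT (0.45 ± 0.15, adjusted p = 0.0485). Both stood apart between the genotypes. Rsad2 overlapped between the genotypes, with 7.07, 13.3 and 8.13 TPM in P21 cKO and 4.01, 7.57, 5.61 and 6.62 TPM in P21 WT (0.77 ± 0.24, adjusted p = 0.0369). Bst2 was not called with P21 cKO 59 or 64 or P21 WT 57 left out (0.44 to 0.58). Rsad2 lost it without any 1 of 7 libraries: P21 cKO 59 or 64, P21 WT 2, 3 or 57, or P7 WT 1 or 3 (0.53 to 0.85). Irgm1 lost it without any 1 of 14 libraries (0.40 to 0.50) and kept it without P1 WT 1 or 3, P7 WT 72 or P21 WT 60. The other 25 genes were not called and had log2 changes of -0.13 (Oas2) to 0.63 (Rtp4). Genes with the steepest rise between P7 and P21 were among them: Ifi27l2a was at 43.9, 87.6 and 59.1 TPM in P21 cKO and 80.9, 61.7, 44.1 and 48.5 TPM in P21 WT (-0.002 ± 0.26).

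**Figure D3:**
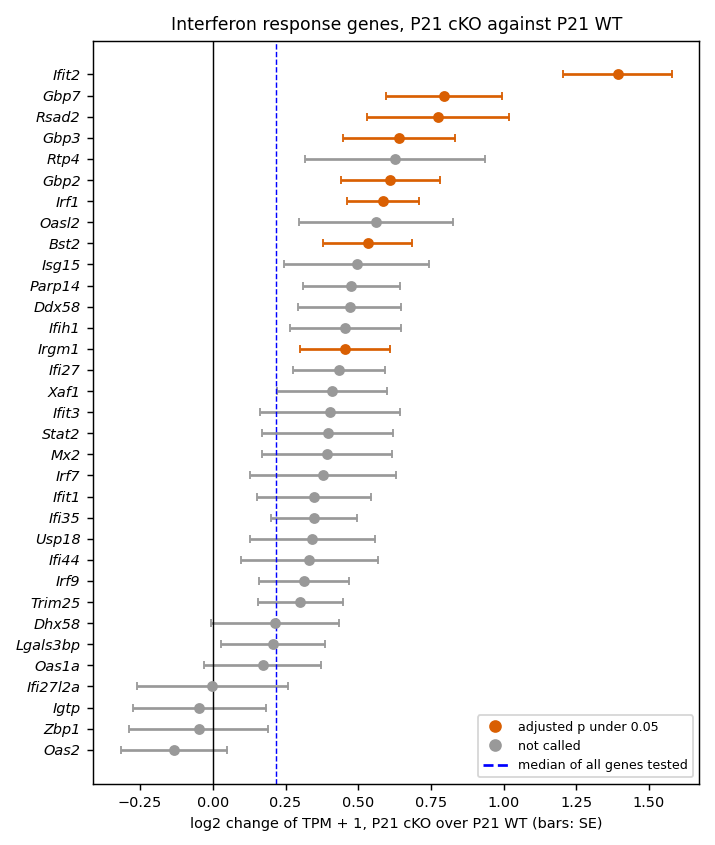
Log2 change of TPM + 1 for P21 cKO over P21 WT in the 33 tested interferon response genes, sorted; points are limma estimates and bars their SE. The 8 called genes are orange, the dashed line is the median of all genes tested at 0.22, and Ifit2 stands furthest to the right at 1.39.

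Among the 33 genes, Ifit2 set P21 cKO hearts furthest apart from P21 WT hearts. It encodes an antiviral protein with tetratricopeptide repeats that binds AU-rich RNA (ENSMUSG00000045932; mm10, chromosome 19, 34550694 to 34576419, + strand). Ifit2 was at 9.62, 7.42 and 6.60 TPM in P1 WT. It was at 6.18, 6.82 and 6.31 TPM in P7 cKO, against 4.74, 6.67, 5.43, 7.87 and 7.42 TPM in P7 WT. It was at 8.99, 12.7 and 9.49 TPM in P21 cKO, against 2.83, 4.84, 3.24 and 3.53 TPM in P21 WT. The genotypes overlapped at P7 and stood apart at P21, where the lowest cKO library was above the highest WT library. The log2 change at P21 was 1.39 ± 0.19 (SE; limma adjusted p = 0.000317), 1.17 relative to the median gene, and the call held in 31 of 31 alternative settings (1.14 to 1.65).

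The genotype difference in Ifit2 was itself larger at P21 than at P7, by 1.31 ± 0.24 on the log2 scale (limma interaction, adjusted p = 0.00734). Ifit2 was the 1 gene of the 33 called in this comparison, beside 7.04% called higher and 0.52% lower of all genes tested. The median gene moved by 0.24. The count was 7 without P21 WT 60, where 20.3% of all genes tested were called higher. It was 2 without P7 WT 72 or P1 WT 3, with 13.2% of all genes called higher without P1 WT 3. The Ifit2 difference was lost among plain-number libraries alone (1.08, adjusted p = 0.0997). Ifit2 fell in WT between P7 and P21 (-0.70 ± 0.15, adjusted p = 0.000599), which is -0.23 relative to the median gene. Ifit3 and Ifit1 rose over the same interval, as given above. The Ifit2 level divided by the Ifit3 level, which needs no scaling between libraries, was 1.74 to 2.48 in P1 WT, 3.03 to 8.02 in P7 cKO and 3.56 to 6.504 in P7 WT. It was 1.13, 0.766 and 1.02 in P21 cKO, against 0.385, 0.478, 0.582 and 0.541 in P21 WT. The ratio was chosen after the values were seen and is given without a test.

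The Ifit genes lie in 1 cluster on chromosome 19 (mm10) in the order Ifit2, Ifit3, Ifit1bl1, Ifit3b, Ifit1bl2 and Ifit1, from 34550694 to 34650009. Ifit1bl1, an Ifit1-like gene of the wider list of interferon-stimulated genes, was at 3.82, 3.48 and 2.65 TPM in P21 cKO, against 1.09, 1, 1.32 and 1 TPM in P21 WT (1.08 ± 0.15, limma adjusted p = 0.000421). Ifit1bl2, chosen after its values were seen, was at 2.69, 2.77 and 2.48 TPM in P21 cKO, against 0.90, 0.68, 0.90 and 0.84 TPM in P21 WT (1.02 ± 0.11, adjusted p = 7.93e-05). Their genotype differences at P21 were larger than those at P7 too, by 1.03 (adjusted p = 0.00827) and 0.89 (adjusted p = 0.00478). Other genes of the cluster did not pass at P21: Ifit3 was at 7.93, 16.6 and 9.33 TPM in P21 cKO and 7.36, 10.1, 5.57 and 6.52 TPM in P21 WT (0.40 ± 0.24, adjusted p = 0.23). Ifit1 was at 2.63, 4.66 and 2.83 TPM in P21 cKO and 2.29, 3.06, 1.67 and 1.88 TPM in P21 WT (0.35 ± 0.20, adjusted p = 0.202), and Ifit3b had a log2 change of 0.39 (adjusted p = 0.186). Lipa and Slc16a12 lie at either end of the cluster and were likewise picked with their values known; their log2 changes of 0.27 (adjusted p = 0.0899) and 0.24 (adjusted p = 0.286) did not pass. In WT, Ifit1bl1 fell with Ifit2 between P7 and P21 (-0.43, adjusted p = 0.0051). Ifit1 and its like genes, and Ifit3 and Ifit3b, are paralogs that can share reads, so the split between them is uncertain.

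**Figure D4:**
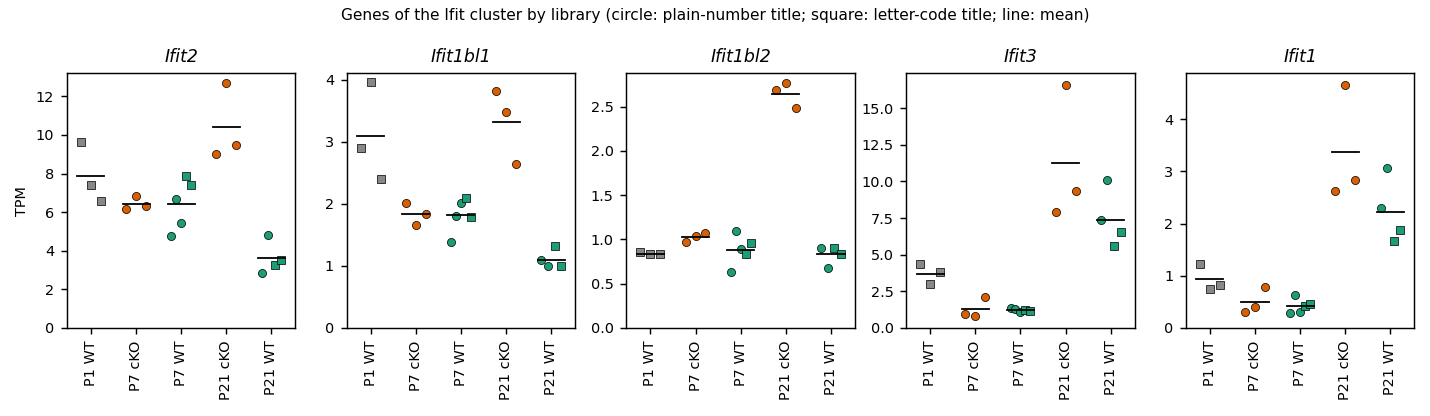
TPM of 5 genes of the Ifit cluster in 18 libraries, by group (P1 WT, P7 cKO, P7 WT, P21 cKO, P21 WT); each point is a library, circles have plain-number titles and squares letter-code titles, and lines are means. In P21 cKO all libraries of Ifit2, Ifit1bl1 and Ifit1bl2 lie above all P21 WT libraries, while Ifit3 and Ifit1 overlap between the genotypes.

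Interferon genes themselves were hardly seen. Of 8 ligand genes, Ifnb1, 3 Ifna genes, Ifne, Ifng, Ifnl2 and Ifnl3, 7 were listed at 0 in all 19 libraries, and Ifng was at 0.7 TPM in P21 WT 57 and at 0 in the others. Of 6 receptor genes tested, 4 were higher in P21 cKO than in P21 WT and 0 lower, beside 19.5% higher and 1.77% lower of all genes tested. Ifnar1 was at 12.5, 13.9 and 13.6 TPM in P21 cKO, against 7.36, 10.9, 10.1 and 9.55 TPM in P21 WT (0.55 ± 0.12, limma adjusted p = 0.00723). It was at 20.2, 23.96 and 21.95 TPM in P7 cKO and at 18.4, 20.7, 20.9, 21.9 and 25.7 TPM in P7 WT. In WT Ifnar1 was lower at P21 than at P7 (-1.13, adjusted p = 8.51e-08), opposite to most response genes.

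Of 91 further pathway genes tested over 4 lists (receptors, signalling, negative regulators and other interferon-stimulated genes), 0 were called at P7 between genotypes and 25 (27.5%) were higher and 0 lower in P21 cKO than in P21 WT, beside 19.5% and 1.77% of all genes tested. Besides Ifit1bl1 and Ifnar1, the smallest p-values were those of Myd88, the adaptor of Toll-like receptors (0.60, limma adjusted p = 0.00216), and Lgals9, a galectin gene (0.61, adjusted p = 0.00231). Between P21 and P7 in WT, 24 of 57 other interferon-stimulated genes (42.1%) were higher and 13 (22.8%) lower, beside 8.1% and 64.4% of all genes tested. Of 18 signalling genes 3 (16.7%) were higher and 12 (66.7%) lower, the last a share near that of all genes. Irf8, a factor of myeloid cells (-1.27, adjusted p = 3.7e-08), Ptpn2, a phosphatase gene that dampens JAK signalling (-0.93, adjusted p = 8.4e-08), and Lgals9 (-1.11, adjusted p = 2.85e-08) were among the lower genes of the 4 lists. Between P7 and P1 in WT, 6 of the 57 (10.5%) were higher and 8 (14%) lower, near the 13.8% and 14.7% of all genes tested, with Slfn5 at 0.75 (adjusted p = 0.000598) and Slfn2 at -0.88 (adjusted p = 0.00094). Ptpn6, a phosphatase gene of blood cells, was higher at P7 than at P1 (0.96, adjusted p = 0.000697), as was Il10rb, a receptor chain shared by interferon lambda and interleukin-10 (0.48, adjusted p = 0.00191).

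Between P21 and P1 in WT, 22 of the 57 other interferon-stimulated genes (38.6%) were higher and 14 (24.6%) lower, beside 11% and 57.1% of all genes tested, among them Ly6a (1.94, limma adjusted p = 2.53e-07), Slfn5 (1.21, adjusted p = 6.36e-07) and Lgals9 (-1.32, adjusted p = 5.01e-08). Ticam1, the adaptor of Toll-like receptor 3, was lower (-1.08, adjusted p = 3.11e-07). In cKO hearts 33 of the 57 (57.9%) were higher at P21 than at P7 and 4 (7.02%) lower, beside 9.36% and 39% of all genes tested, with Ly6a at 1.41 (adjusted p = 1.63e-05), Slfn2 at 1.21 (adjusted p = 1.51e-05) and Ifi203, of a family of DNA-binding proteins, at 1.12 (adjusted p = 1.82e-05). For the genotype difference at P21 minus that at P7, 9 of the 91 genes (9.89%) were called higher and 0 lower, beside 7.04% and 0.52% of all genes tested. Besides Ifit1bl1 these included Tbk1, a kinase gene that acts on IRF3 (0.73, limma adjusted p = 0.00705), and Myd88 (0.61, adjusted p = 0.0174).

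Markers of cell types moved along with these ages and genotypes, and their part in the results was not tested. In whole tissue, fewer cells of a type and less RNA per cell cannot be told apart. The 12 macrophage markers summed to 87.1 to 89.3 TPM in P1 WT, 105 to 121 TPM in P7 cKO, 106 to 123 TPM in P7 WT, 220 to 299 TPM in P21 cKO and 238 to 355 TPM in P21 WT. Of the 12, 9 were higher in P21 WT than in P7 WT and 8 higher in P21 cKO than in P7 cKO. None was called between genotypes at P21 in limma, where 0 had an unadjusted p under 0.05. Their sums were higher at P7 than at P1. Over that interval in WT, 14 of the 33 response genes were called lower and 1 higher. Of 10 endothelial markers 8 were higher in P21 cKO than in P21 WT, with sums of 825 to 847 TPM in P21 cKO and 592 to 702 TPM in P21 WT. All 8 fibroblast markers were higher in P21 cKO, with sums of 1236 to 1413 TPM in P21 cKO and 765 to 1027 TPM in P21 WT. The 12 lymphocyte markers summed to at most 5.96 TPM in any grouped library, with Cd3d, Cd3e and Cd3g at or under 0.75 TPM. The defining macrophage markers C1qa and Csf1r were seen in every library, at no less than 16.7 and 5.66 TPM. The 7 neutrophil markers summed to 6.06 to 17.5 TPM in P21 cKO and 3.41 to 34.3 TPM in P21 WT. The 5 plasmacytoid dendritic cell markers summed to 38.6 to 44.1 TPM in P21 cKO and 21.96 to 33.1 TPM in P21 WT. Most of this was Tcf4, at 19.1 to 59.3 TPM over all libraries and the 1 marker of the list tested, which was higher in P21 cKO (0.65). Siglech and Ccr9 stayed at or under 0.16 TPM, Pacsin1 at or under 0.42 TPM and Klk1 at or under 3.11 TPM. The 6 red cell markers summed to 10703 to 20934 TPM in P21 cKO and 6225 to 16185 TPM in P21 WT.

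**Figure D5:**
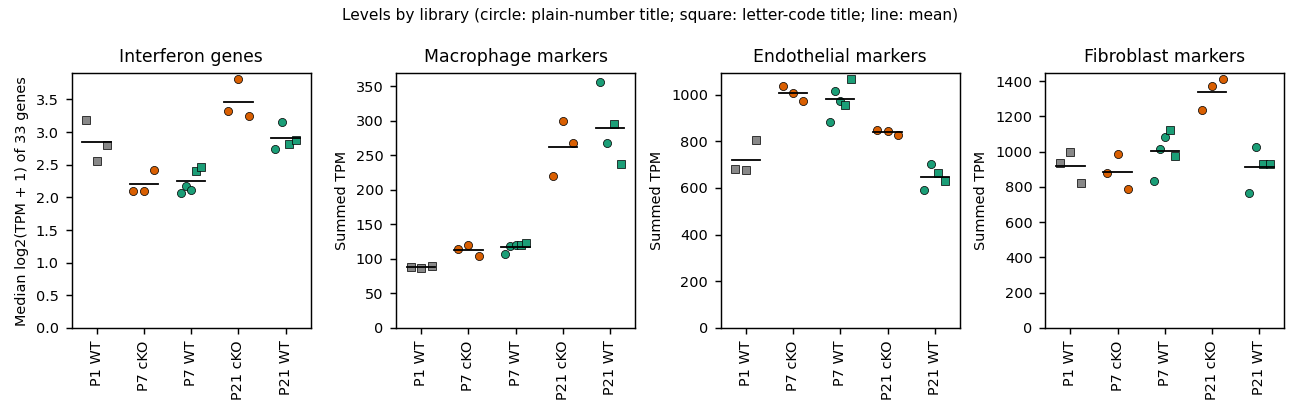
Levels by group in 18 libraries: the median log2(TPM + 1) of the 33 interferon response genes, and the summed TPM of macrophage, endothelial and fibroblast markers. Each point is a library, circles have plain-number titles, squares letter-code titles, and lines are means; the response genes are lowest at P7, while macrophage markers are at 87.1 to 89.3 TPM at P1 and highest at P21.

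Library 63, in no group, had a median log2(TPM + 1) of 2.79 over the 33 genes, with Ifit2 at 3.42 TPM and Ifit3 at 5.62 TPM, an Ifit2 to Ifit3 ratio of 0.609.

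The remaining genes are given by their ranges over the 18 libraries. Of the sensors, Ddx58, which encodes RIG-I, ran from 5.27 to 9.83 TPM, Ifih1, which encodes MDA5, from 1 to 3.44 TPM, Dhx58, which encodes LGP2, from 0.50 to 2.59 TPM and Zbp1, a sensor of Z-form nucleic acid, from 0.06 to 1.44 TPM. Stat2 ran from 6.11 to 13.2 TPM and Usp18 from 1.13 to 4.49 TPM. Trim25 ran from 9.90 to 18.8 TPM. Of the effectors, Oasl2 ran from 2.66 to 14.8 TPM, Mx2 from 0.44 to 3.63 TPM, Xaf1, a factor linked to apoptosis, from 7.84 to 19.8 TPM, Ifi35 from 7.54 to 16.6 TPM and Ifi44 from 0.56 to 5.60 TPM. Igtp ran from 2.93 to 10.5 TPM, with its highest value in P21 WT 57, and Rtp4 from 2.19 to 16.7 TPM.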

How the data were processed

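The authors deposited 1 table of TPM values per gene and library, with no counts. Per the submitters' processing notes the tools were TopHat2 2.0.14 and Cufflinks 2.2.1 and the build was mm10; the role of each and the maker of the TPM values are not stated. RNA iso Plus served for extraction and a SMARTer mRNA-Seq kit for the libraries, per the labels' protocols; whether strand was kept is not given in the sources used here, so reads of overlapping antisense genes cannot be told apart. The analysis took log2(TPM + 1) of genes at 1 TPM or more in at least 3 libraries and fitted limma 3.58.1 (R 4.3.3, mean-variance trend, moderated statistics) to all 14812 of them, over 18 libraries, with terms for group and title style. Comparisons were adjusted by the Benjamini-Hochberg method over all genes tested, at 0.05. The written plan assumed another normalized unit than TPM; the test is the same. The fit was tested on simulated data. Columns of the authors' means (7) and of no sample of the series (2) were not used. Library 63 entered no fit.

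The 34 genes, their roles and the wider lists were chosen with earlier results of these data known. Named per comparison were the genes called that had the smallest p-values, at most 8 (3 where none passed), and at most 4 of the wider lists; 2 genes of the wider lists that this rule names are not reported here. Promoters are RefSeq windows of GRCm38.p6 (mm10). Coordinates are from the mm10 annotation. Alternatives were scaling, pseudocount, filters, a 2-fold limit, array weights, no title term, 1 title style, only the groups compared, a replicate block and each library left out.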

Additional observations from a re-analysis of the deposited data

Results flagged for a closer look

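Of 68 groups of 4 or 5 libraries examined over the 34 genes, 4 held a library far from its group, where chance alone gives about 1 in 20. Dhx58 was at 1.14 TPM in P7 WT 72, against 0.53 to 0.68 TPM in the other P7 WT libraries. Irgm1 was at 5.66 TPM in the same library, against 7.81 to 8.55 TPM in the others. Oasl2 was at 11.3 TPM in P21 WT 60, against 5.40 to 6.15 TPM in the other P21 WT libraries, and Rtp4 at 13.5 TPM, against 6.10 to 7.02 TPM.

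The genotype difference of Ifit2 was larger at P21 than at P7, by 1.31 ± 0.24 (SE) on the log2 scale (limma interaction over all genes, adjusted p = 0.00734).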

How the results depend on the processing

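The values counted here are those of the genes named by the rule for each comparison. Ifit2 was added beyond the rule for P7 cKO against P7 WT, P21 WT against P7 WT and P21 cKO against P7 cKO. Of these values 1350 kept direction and call, 108 kept direction but lost the call, and 1 changed sign. The last was Ifit2 in P7 cKO against P7 WT, not called. It was 0.09 with all libraries, -0.021 without P7 WT 72 and up to 0.15 with another library left out. Among called genes outside that rule, Bst2 (P21 WT against P1 WT) and Trim25 (P21 WT against P1 WT and against P7 WT) changed sign with median-ratio scaling (0.11, 0.17 and 0.16) and with quantile normalization (0.07, 0.20 and 0.17). The cause was not tested for these or for the counts below.

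Shares in brackets are those of all genes tested called in the same direction under the same setting. Of the 33 genes 8 were higher in P21 cKO than in P21 WT (19.5%). The number was 2 with median-ratio scaling (4.04%), 1 with quantile normalization (4.1%), 4 with no filter (6.36%) and 1 with the 2-fold limit (0.817%). It was 18 with array weights (36.3%), 2 among plain-number titles (9.52%) and 1 with only the groups compared (2.7%). Without 1 library it ran from 2, without P21 WT 57 (8.63%) or P21 cKO 59 (9.98%), to 18, without P21 WT 60 (32.6%). In each of these settings the share moved in the same direction as the number. For P7 WT against P1 WT, the 1 higher gene (13.8%) became 0 with the 2-fold limit (1.6%). The 14 lower genes (14.7%) became 8 with no filter (6.86%) and 5 with the 2-fold limit (1.82%). They became 6 among letter-code titles (8.13%) and 5 with only the groups compared (9.15%). Without 1 library the counts ran from 1 to 2 higher and from 6, without P1 WT 1 (11.8%), to 14 lower. For P21 WT against P7 WT, the 24 higher genes (8.1%) became 6 with the 2-fold limit (2%) and 7 among letter-code titles (4.6%). The 2 lower (64.4%) became 0 with median-ratio scaling (27.2%), quantile normalization (27.3%), the 2-fold limit (13.1%) or plain-number titles (53.4%). They became 1 with mitochondrial and haemoglobin genes removed (57.3%). Without 1 library the counts ran from 18, without P21 WT 60 (7.11%), to 25 higher, with 2 lower. For P21 WT against P1 WT, the 12 higher (11%) became 3 with the 2-fold limit (3.79%). The 4 lower (57.1%) became 1 with median-ratio scaling (29.3%) and 0 with quantile normalization (28.9%) or the 2-fold limit (19%). They became 2 with mitochondrial and haemoglobin genes removed (48.4%). Without 1 library the counts ran from 8, without P1 WT 2 (10.3%), to 12 higher and from 2 to 5 lower. The 29 genes higher in P21 cKO than in P7 cKO (9.36%) became 13 with the 2-fold limit (2.37%). Without 1 library they ran from 25, without P21 cKO 59 (7.94%), to 30. The 1 gene of the interaction (7.04%) became 11 with array weights (33.4%), 0 among plain-number titles (0.605%) and 2 with only the groups compared (11.7%). Without 1 library the number ran from 1 to 7, the 7 without P21 WT 60 (20.3%). The 11 and the 7 were out of 33 genes, shares near those of all genes tested. None was called between genotypes at P7 under any of these.

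With the replicate number as a block, 1 gene was higher and 18 lower for P7 WT against P1 WT (13.1% each of all genes tested). For P21 WT against P7 WT 29 were higher and 2 lower (7.73% and 62.4%), and for P21 WT against P1 WT 12 and 3 (11% and 55.6%). In P21 cKO 6 were higher than in P21 WT (16.8%) and 30 higher than in P7 cKO (9.34%). Letter-code libraries of the same number had correlations of deviations from group means of -0.095 to 0.066 over 5 pairs. P7 and P21 hold 2 letter-code libraries each, whose deviations mirror each other. The check thus cannot show whether libraries of the same number share more than that number. P1 WT 1, P21 cKO 59 and P21 WT 60 were also left out together, a choice made after seeing the data. Then 11 genes were higher in P21 cKO than in P21 WT (22.1% of all genes tested). For P7 WT against P1 WT 3 were higher (15.4%) and 8 lower (11.4%), and 4 were called higher in the interaction (11%). Depth is unknown, so no floor can be given for genes near 0 TPM.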
